A study of Mus musculus with 8 samples.

Results

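Zfp36, Zfp36l1 and Zfp36l2 encode the ZFP36 family of mRNA decay factors, and their transcripts were examined in primordial follicles of the neonatal mouse ovary. They are 3 of the 26586 gene symbols counted, and all 3 were among the 13873 genes that passed the expression filter. The members were chosen by name with measured values in view, since Zfp36 had been called by a likelihood ratio test of mito-supplemented against control samples in these same libraries. Their values in that contrast are therefore a description with no test, and nothing rests on them.

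RNA-Seq was performed on primordial follicles, each an oocyte enclosed by flattened pregranulosa cells, of 4 mito-supplemented and 4 control samples. Mito-supplemented samples were from offspring of the third generation descending from oocytes that had received isolated mitochondria at fertilisation, and control samples were from mice without that ancestry. All were C57Bl/6 x CBA mice on postnatal day 3. A further control library was removed by the authors as an outlier and is not analysed here. The follicles were freed from the ovary with enzymes and their RNA was amplified before sequencing. Total counts on genes ranged from 10370045 in control replicate 4 to 19760763 in mito-supplemented replicate 1. Outside ribosomal RNA genes the same libraries held 2559876 and 15778975 counts, the lowest and the highest of the 8.

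ZFP36 proteins bind AU-rich elements in the 3′ UTR of a message through a pair of zinc fingers and recruit the CCR4-NOT deadenylase, after which the message loses its poly(A) tail and is decapped or degraded by the exosome. Zfp36, also called tristetraprolin, is an immediate-early gene best known for limiting inflammatory messages such as Tnf. Zfp36l1 acts in development and in lymphocytes, and Zfp36l2 is known as a maternal factor that oocytes need to mature fully and to support the early embryo.

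The ZFP36 family members carry AU-rich elements in their own messages, which are shown because the same motif is used below to class all genes. In the GRCm38 build, Zfp36 lies at chr7:28376784-28380253, Zfp36l1 at chr12:80107754-80113013 and Zfp36l2 at chr17:84183931-84187947, all on the minus strand. Each 3′ UTR holds 1 match to the nonamer TTATTTATT, in capitals below, and 3 matches to its core TATTTAT. The sites lie at chr7:28376951-28376979, chr12:80108167-80108195 and chr17:84184914-84184942, and are printed 5′ to 3′ on the strand of the gene.
Zfp36: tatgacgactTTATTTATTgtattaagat
Zfp36l1: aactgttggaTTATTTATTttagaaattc
Zfp36l2: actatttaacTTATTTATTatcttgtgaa
The nonamer starts at base 589 of the 774-base 3′ UTR of Zfp36, at base 1404 of 1835 in Zfp36l1 and at base 821 of 1822 in Zfp36l2. Among the 20221 genes with an annotated 3′ UTR, 7.76% hold at least 1 nonamer.

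Markers of the cell types a follicle isolate could hold differed widely between libraries. Oocyte markers, 14 genes of which all were detected, summed to 3474, 207.7, 182 and 649 CPM (TMM-normalized counts scaled to the size of the library) in control replicates 1 to 4 and to 310, 190.5, 721 and 102 CPM in mito-supplemented replicates 1 to 4. Control replicate 1 thus stood far above the other libraries. Nlrp5, a component of the maternal complex under the oocyte membrane and the most abundant of these markers, was at 1392 CPM there and at no more than 245 CPM elsewhere. The median log2 fold change of the 13 oocyte markers tested was -1.80 with all libraries and 0.04 without control replicate 1. No marker in the count table was at 0 in all libraries, and 2 of the 8 red cell genes listed are not in that table.

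Somatic markers were on the whole higher in mito-supplemented samples and in control replicate 4. Surface epithelium markers summed to 125, 67.3, 51.8 and 476.5 CPM in controls and to 361, 1043, 442 and 789 CPM in mito-supplemented samples, and all 10 had a higher mean there, with Upk3b the most abundant and a median log2 fold change of 1.79 that was 3.23 without control replicate 4. Upk1b, a uroplakin gene of this list, was at 4.72, 0.238, 0.858 and 0.790 CPM in controls and at 29.0, 134, 23.9 and 44.9 CPM in mito-supplemented samples, and was among the genes called by edgeR's likelihood ratio test. With 3, 15 and 4 counts in control replicates 2 to 4, Upk1b passed the expression filter only through the mito-supplemented libraries and so had to differ, and nothing is read from its call. Stroma markers, led by the collagen gene Col3a1, summed to 336, 456, 652 and 2208 CPM in controls and to 953, 989, 2504 and 2216 CPM in mito-supplemented samples, with 9 of 9 higher and a median of 0.81, which was 1.76 without control replicate 4 but 0.46 when mito-supplemented replicate 4 was left out. Endothelium markers, led by the VEGF receptor gene Kdr, summed to 27.2, 28.9, 46.3 and 225 CPM in controls and to 97.7, 228, 187.5 and 204 CPM in mito-supplemented samples, with 6 of 8 higher and a median of 1.10, which was 0.43 without mito-supplemented replicate 3. Esam, an endothelial adhesion gene of this list, was at 0.492, 0.634, 1.03 and 1.38 CPM in controls and at 13.9, 9.49, 8.48 and 3.198 CPM in mito-supplemented samples, and was called by the same likelihood ratio test, but not without control replicates 2 or 3 or mito-supplemented replicates 2 or 3. With 18 counts or fewer in each control Esam also needed the mito-supplemented libraries to pass the filter, and nothing is read from its call. In each of these 3 lists control replicate 4 lay within the range of the mito-supplemented libraries, whereas the other controls lay below it.

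Granulosa markers, led by the transcription factor gene Wt1, summed to 340, 201, 339 and 902 CPM in controls and to 409, 961, 801 and 1042 CPM in mito-supplemented samples, with 9 of the 11 tested higher and a median of 0.96, which was 0.53 without control replicate 2. Smooth muscle markers, led by the myosin gene Myh11, summed to 27.9, 21.2, 47.4 and 226 CPM in controls and to 43.6, 74.7, 87.7 and 324 CPM in mito-supplemented samples. All 5 were higher, with a median of 0.88, but the median was -0.17 without mito-supplemented replicate 4 but 2.10 when control replicate 4 was left out. Blood markers followed single libraries and not the groups. Leukocyte markers, led by the lysozyme gene Lyz2, summed to 18.5, 189, 161 and 24.5 CPM in controls and to 1035, 13.7, 20.8 and 9.18 CPM in mito-supplemented samples, and the median of the 8 tested was 1.27 with all libraries and -1.97 without mito-supplemented replicate 1. Red cell markers, led by the anion exchanger gene Slc4a1, summed to 23.8, 3905, 2492 and 50.7 CPM in controls and to 4873, 79.6, 28.7 and 27.8 CPM in mito-supplemented samples, with a median of -0.24 over the 4 tested that became -4.89 without mito-supplemented replicate 1 but 0.78 when control replicate 2 was left out. In such bulk samples more cells of a type and more RNA per cell cannot be told apart, and the part of cell make-up in the results that follow was not tested.

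**Figure D1:**
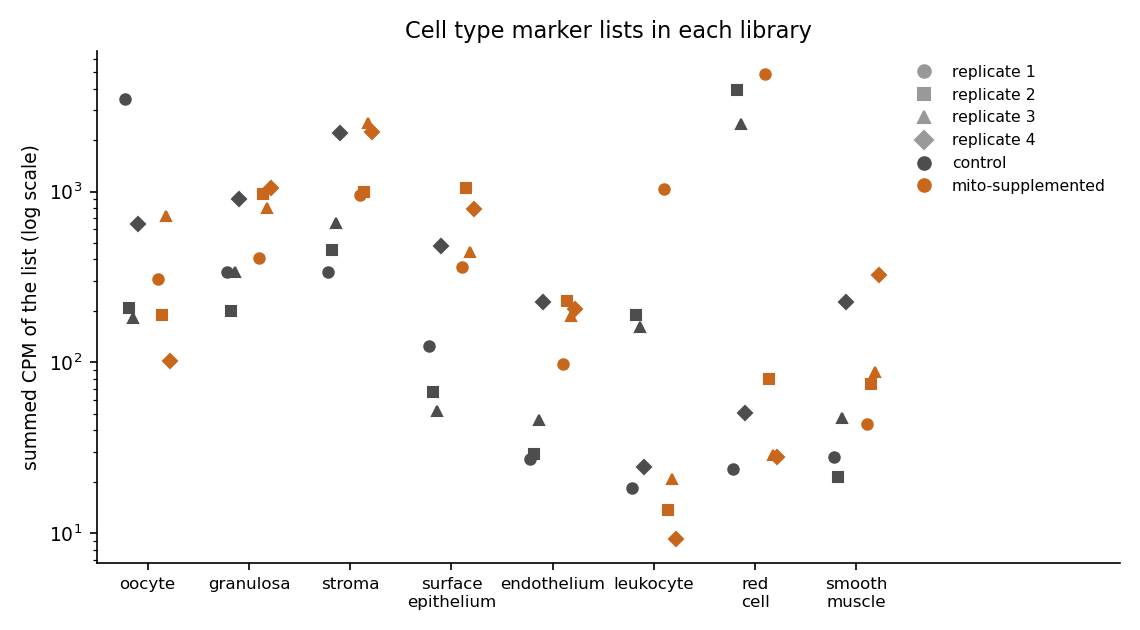
Summed CPM of each marker list on a log scale, 1 point per library, with controls in grey, mito-supplemented samples in orange and marker shape for the replicate number. Control replicate 1 holds the highest oocyte sum, at 3474 CPM, and mito-supplemented replicate 1 the highest leukocyte sum, at 1035 CPM.

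Zfp36 was at 2.49, 3.08, 11.7 and 4.55 RPKM (CPM per kilobase of exons) in control replicates 1 to 4 and at 21.5, 17.2, 28.2 and 51.7 RPKM in mito-supplemented replicates 1 to 4. All mito-supplemented libraries lay above all control libraries, and control replicate 3 was the highest of the controls. The lowest number of Zfp36 counts was 80, in control replicate 4, with a 95% exact Poisson interval of 63.4 to 99.6 that covers counting error only. The mean level was 5.46 ± 4.25 RPKM (SD, n = 4) in controls and 29.6 ± 15.4 RPKM (SD, n = 4) in mito-supplemented samples.

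Zfp36l1 was at 15.04, 21.4, 30.7 and 51.5 RPKM in control replicates 1 to 4 and at 36.2, 45.4, 43.5 and 85.4 RPKM in mito-supplemented replicates 1 to 4. With TMM normalization the groups overlapped, since control replicate 4 lay above 3 of the mito-supplemented libraries. This was the control library with high stroma, surface epithelium and endothelium markers, and its TMM factor was 0.489. When CPM was scaled by library size alone, a total that includes ribosomal RNA genes, the groups did not overlap. Zfp36l1 then ran from 58.1 to 88.1 CPM in controls and from 113 to 276.6 CPM in mito-supplemented samples. That scale lowers control replicate 4, of whose 10370045 counts only 2559876 lay outside ribosomal RNA genes. Scaling by counts outside those genes was not run, so nothing is read from this separation. The mean level was 29.7 ± 15.9 RPKM (SD, n = 4) in controls and 52.6 ± 22.2 RPKM (SD, n = 4) in mito-supplemented samples.

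Zfp36l2 was at 9.22, 6.45, 7.70 and 6.49 RPKM in control replicates 1 to 4 and at 9.70, 6.67, 8.61 and 8.31 RPKM in mito-supplemented replicates 1 to 4. Its groups overlapped throughout. With TMM normalization its highest library was 1.51 times its lowest, compared with 5.68 times for Zfp36l1 and 20.7 times for Zfp36. The range was wider when scaled by library size alone, a total that includes ribosomal RNA genes. Zfp36l2 then ran from 11.2 CPM in control replicate 4 to 44.9 CPM in control replicate 1. Most counts of control replicate 4 fell on ribosomal RNA genes, with 2559876 of 10370045 outside them, which lowers its value on that scale. On that scale Zfp36l1 ran from 58.1 to 276.6 CPM and Zfp36 from 7.72 to 194 CPM. The mean level of Zfp36l2 was 7.46 ± 1.31 RPKM (SD, n = 4) in controls and 8.32 ± 1.25 RPKM (SD, n = 4) in mito-supplemented samples. Zfp36l3, an X-linked relative known from the rodent placenta and yolk sac, had 0 counts in all 8 libraries, which allows at most between 0.0525 and 0.252 RPKM per library at a limit of 3 counts.

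**Figure D2:**
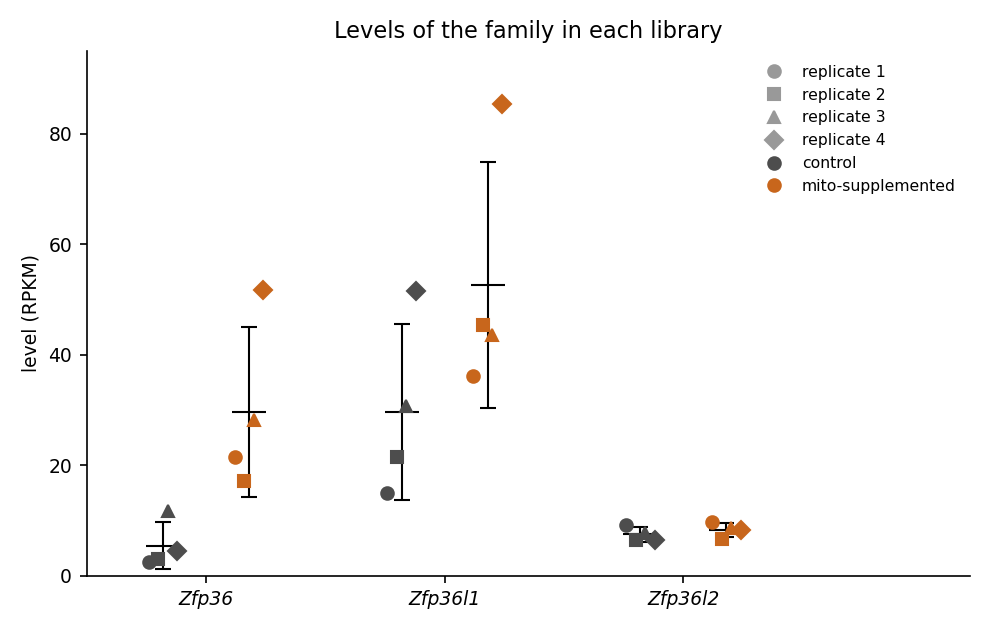
Level in RPKM of each family member in each library, with controls in grey, mito-supplemented samples in orange and marker shape for the replicate number. Black bars are the mean and the SD of 4 libraries. With TMM normalization, as drawn, Zfp36 runs from 2.49 to 11.7 RPKM in controls and from 17.2 to 51.7 RPKM in mito-supplemented samples. Zfp36l2 stays between 6.45 and 9.70 RPKM on this scale.

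Within libraries Zfp36l1 was the most abundant member when all annotated exons set the length. Zfp36l2 was below Zfp36l1 in 8 of 8 libraries, by a mean log2 RPKM difference of -2.22 ± 0.83 (SD, n = 8), with an exact paired permutation p of 0.00781 (two-sided, the smallest that 8 libraries can give) and 0.0117 after adjustment over the 3 pairs. Zfp36l1 was above Zfp36 in 8 of 8 libraries, by 1.72 ± 1.09 log2 RPKM (SD, n = 8), with the same exact permutation p of 0.00781 and adjusted value of 0.0117. The gap between Zfp36l1 and Zfp36 spanned 3.29-fold on average, from 1.54-fold in mito-supplemented replicate 3 to 11.2-fold in control replicate 4. It depends on the length assigned to Zfp36. Its annotated exons total 3470 bases, whereas its longest coding transcript has only 1765 bases within the RefSeq gene, here called the RefSeq length. With the length of the longest coding transcript, 2790 bases for Zfp36, Zfp36l1 was above Zfp36 in 8 of 8 libraries. The difference was then 1.40 log2 RPKM (exact permutation, adjusted p = 0.0117). With the RefSeq length, an alternative chosen after seeing the data, Zfp36l1 was above Zfp36 in 5 of 8 libraries, by 0.74 log2 RPKM (exact permutation, adjusted p = 0.125).

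The order of Zfp36 and Zfp36l2 was not settled. Zfp36l2 differed from Zfp36 by a mean of -0.50 ± 1.52 log2 RPKM (SD, n = 8) and was the higher of the pair in 3 of 8 libraries, which is within the spread between libraries (exact paired permutation, two-sided, p = 0.367, adjusted p = 0.367). With the RefSeq length the difference was -1.48 log2 RPKM, with Zfp36l2 the higher in 2 of 8 libraries and an exact permutation p of 0.0469, or 0.0703 after adjustment over the 3 pairs. With lengths over all annotated exons Zfp36l2 was the higher in control replicates 1, 2 and 4, and with the RefSeq length in control replicates 1 and 2 only. The mean of Zfp36l2 minus Zfp36 over all annotated exons was 0.71 log2 RPKM in controls and -1.71 in mito-supplemented samples, which restates the contrast on which Zfp36 was selected. With 4 libraries the exact permutation test cannot go below p = 0.125, so the order within a group could not reach the threshold.

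As a share of the summed RPKM of the 3 genes, Zfp36l1 made up 56.2, 69.2, 61.3 and 82.3% in controls and 53.7, 65.6, 54.1 and 58.7% in mito-supplemented samples. Zfp36 made up 9.33, 9.96, 23.4 and 7.28% in controls and 31.9, 24.8, 35.2 and 35.5% in mito-supplemented samples. Zfp36l2 made up 34.5, 20.8, 15.4 and 10.4% in controls and 14.4, 9.63, 10.7 and 5.72% in mito-supplemented samples. These shares rest on the exon lengths of the annotation. With the shorter RefSeq length, an alternative added after the data were seen, Zfp36 made up 13.4 to 37.4% in controls and 39.3 to 52.0% in mito-supplemented samples. It was then the largest share in mito-supplemented replicates 1, 3 and 4, and Zfp36l1 in the other 5 libraries. The sum of the 3 genes was 42.6 ± 16.7 RPKM (SD, n = 4) in controls and 90.6 ± 36.9 RPKM (SD, n = 4) in mito-supplemented samples.

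**Figure D3:**
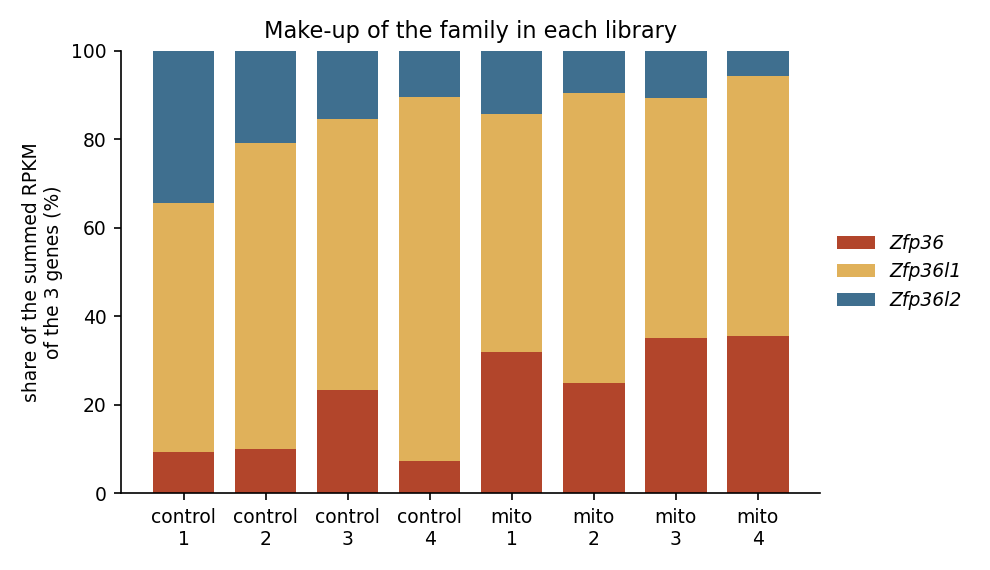
Share of each member in the summed RPKM of Zfp36, Zfp36l1 and Zfp36l2, in percent, with 1 bar per library. With lengths over all annotated exons, as drawn, Zfp36l1 is the largest share in every library and Zfp36 takes between 24.8 and 35.5% in mito-supplemented samples against 7.28 to 23.4% in controls, but with the RefSeq length Zfp36 is the largest in 3 libraries.

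The fitted log2 fold change, mito-supplemented against control, was 2.44 (standard error 0.58) for Zfp36, 0.83 (standard error 0.45) for Zfp36l1 and 0.16 (standard error 0.33) for Zfp36l2. These values describe the contrast on which Zfp36 was selected. Over all genes tested the median log2 fold change was -0.10 with TMM normalization and 0.17 with library size alone. Relative to these medians Zfp36 was at 2.54 and 2.61, Zfp36l1 at 0.93 and 1.16, and Zfp36l2 at 0.26 and 0.21. Leaving out single libraries moved Zfp36 to 3.14 at most, without control replicate 3, and to 2.06 at least, when mito-supplemented replicate 4 was dropped. Zfp36l1 was at 0.52 without mito-supplemented replicate 4, and dropping control replicate 4 gave 1.25. Zfp36l2 was at 0.02 when GC content and length were modelled, at 0.39 with library size alone, and at 0.09 without control replicate 2 but at 0.30 when control replicate 1 was left out.

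Of the 3 members, 0 were called by edgeR's quasi-likelihood test at an adjusted p under 0.05 and a 2-fold difference, where 0 of all 13873 genes (0%) were called and 1069 had an unadjusted p under 0.05. With edgeR's likelihood ratio test 1 member, Zfp36, was called, which only restates how it was selected, and 58 genes (0.418%) were called in all and 57 (0.411%) were called as higher in mito-supplemented samples. DESeq2 called 141 genes. With TMM normalization Zfp36 was also the 1 member whose groups did not overlap in CPM. The same held for 416 genes (3%) that were higher and 282 genes (2.03%) that were lower in mito-supplemented samples. Scaled by library size alone, with ribosomal RNA genes in the total, the groups of Zfp36l1 did not overlap either. Its highest control was then at 88.1 CPM and its lowest mito-supplemented library at 113 CPM. Nothing is read from this, since only 2559876 of the 10370045 counts of control replicate 4 lay outside ribosomal RNA genes. The exons of Zfp36, Zfp36l1 and Zfp36l2 overlap the annotated genes Gm44710, Gm26669 and AC132455.1, and Zfp36l1 has a processed pseudogene on the X chromosome, so that their counts are uncertain to the extent that reads were shared. Gm44710, Gm26669 and AC132455.1 are not among the symbols in the count table.

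The genes that act with ZFP36 proteins were described by role in lists, set beside all genes tested, of which 44.9% had a log2 fold change above 0. At an unadjusted p under 0.05 in the quasi-likelihood test, 736 genes (5.31%) had a higher and 333 (2.4%) a lower level in mito-supplemented samples. The groups did not overlap in CPM for 416 genes (3%) that were higher and 282 (2.03%) that were lower in mito-supplemented samples. The likelihood ratio test called 58 genes (0.418%). In none of the lists was a gene called by edgeR's quasi-likelihood test.

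Other factors that bind AU-rich elements or set mRNA stability had a median below that of all genes. Of 16 genes tested, 4 had a higher and 12 a lower mean in mito-supplemented samples, with a median log2 fold change of -0.33 that was -0.15 without mito-supplemented replicate 4, 1 higher and 1 lower at an unadjusted p under 0.05, and 0 called by either edgeR test. The lower gene, Cpeb1, was at 336 CPM in control replicate 1, the library rich in oocyte markers, and at most 94.7 CPM elsewhere. Without that library its log2 fold change went from -2.06 to -0.58, and that of Elavl2 from -1.65 to 0.005. Both genes were picked out once the values were known. Tia1, which encodes a translational repressor that binds AU-rich messages, was at 21.5, 32.4, 40.4 and 33.8 CPM in controls and at 48.5, 102, 80.0 and 108 CPM in mito-supplemented samples. It was the 1 gene of the list whose groups did not overlap, and its log2 fold change was 1.40, with a standard error of 0.37 and an edgeR quasi-likelihood p of 0.545 after Benjamini-Hochberg adjustment. Hnrnpab, a heterogeneous nuclear ribonucleoprotein gene, had the highest mean level, at 68.4 RPKM, with 199 ± 62.6 CPM in controls against 181 ± 37.9 CPM in mito-supplemented samples (mean ± SD, n = 4 each).

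Deadenylases, the enzymes that ZFP36 proteins recruit, were lower for 14 of the 15 genes tested, with a median log2 fold change of -0.43, 3 lower and 0 higher at an unadjusted p under 0.05, and 0 called by either edgeR test. Cnot3, a scaffold subunit of CCR4-NOT, was at 115.5, 79.0, 72.1 and 74.4 CPM in controls and at 65.5, 43.8, 36.8 and 46.3 CPM in mito-supplemented samples. D1Bwg0212e, the older symbol of the subunit gene Cnot11, was at 21.3, 20.4, 24.3 and 28.0 CPM in controls and at 16.5, 12.5, 13.1 and 5.21 CPM in mito-supplemented samples. The groups did not overlap for either gene, with log2 fold changes of -0.83 (standard error 0.33) for Cnot3 and -0.99 (standard error 0.44) for D1Bwg0212e and adjusted p values of 0.626 and 0.645 in edgeR's quasi-likelihood test. Cnot1, the central scaffold that ZFP36 proteins contact, was the most abundant at 29.4 RPKM and had 583 ± 178 CPM in controls against 426 ± 52.5 CPM in mito-supplemented samples (mean ± SD, n = 4 each).

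The later steps of decay showed like medians. Of 19 genes for decapping and 5′ decay, 3 were higher and 16 lower, with a median log2 fold change of -0.42 that was -0.18 without control replicate 1, and 2 lower at an unadjusted p under 0.05, and of 16 exosome and SKI genes 4 were higher and 12 lower, with a median of -0.38 and 0 at an unadjusted p under 0.05. Neither list had a gene called by the likelihood ratio test. Lsm2, of the ring that binds deadenylated ends, was at 12.3 to 23.9 CPM in controls and at 0.556 to 11.7 CPM in mito-supplemented samples. Ddx6, a helicase that activates decapping, had the highest level of its list at 30.6 RPKM, with 281 ± 87.0 CPM in controls against 210 ± 49.1 CPM in mito-supplemented samples (mean ± SD, n = 4 each). Exosc10, the nuclear exonuclease of the exosome, ran from 64.6 to 98.6 CPM in controls and from 51.7 to 58.4 CPM in mito-supplemented samples, and had the highest level of its list at 18.8 RPKM. Dis3l, the cytoplasmic exonuclease, ran from 20.8 to 26.6 CPM in controls and from 9.97 to 17.9 CPM in mito-supplemented samples. With library size alone the medians were -0.01 for the other AU-rich element and stability factors, -0.20 for deadenylases, -0.25 for decapping and -0.10 for the exosome, against 0.17 for all genes.

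BTG and TOB proteins, which link RNA-binding proteins to the deadenylases, were higher for 4 of 6 genes, with a median log2 fold change of 0.30 that was 0.06 without mito-supplemented replicate 1 but 0.56 when control replicate 1 was left out, 1 higher at an unadjusted p under 0.05 and 0 called by the likelihood ratio test. Btg2, the most abundant at 21.4 RPKM, was at 11.0, 78.7, 61.5 and 2.96 CPM in controls and at 77.8, 87.1, 59.9 and 90.9 CPM in mito-supplemented samples, so that control replicates 2 and 3 matched the mito-supplemented range. Kinases, phosphatases and 14-3-3 proteins that set the activity of ZFP36 by its phosphorylation were higher for 10 of 16 genes, with a median of 0.11, which was -0.03 without mito-supplemented replicate 4 but 0.32 when control replicate 4 was left out and 0.47 with library size alone, and 0 genes at an unadjusted p under 0.05 or called. Ppp2r1a, the scaffold subunit of the phosphatase that restores ZFP36 activity, ran from 46.1 to 58.6 CPM in controls and from 66.3 to 77.4 CPM in mito-supplemented samples. Its groups did not overlap, and its log2 fold change was 0.54, with a standard error of 0.28 and an edgeR quasi-likelihood p of 0.669 after Benjamini-Hochberg adjustment. Ywhae, a 14-3-3 gene and the most abundant of the list at 145 RPKM, had 360 ± 129 CPM in controls against 385 ± 96.9 CPM in mito-supplemented samples (mean ± SD, n = 4 each).

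Textbook messages targeted by ZFP36 proteins were higher in mito-supplemented samples for 20 of the 21 genes tested, the exception being Myc, a gene picked out once the values were known. The median log2 fold change was 1.09, with 7 higher and 0 lower at an unadjusted p under 0.05, 6 whose groups did not overlap and 2 called by the likelihood ratio test. Of all genes tested, 5.31% were higher at that p, 3% were higher without overlap and 0.411% were called as higher. A further 12 of the 33 listed, among them Tnf, Csf2 and Il6, did not pass the expression filter and are not in these counts. Of these 12, 8 had a higher mean CPM in mito-supplemented samples and 4 (Csf2, Il3, Il6 and Lif) in controls. Ptgs2, with 15 counts or fewer in each control, passed the filter through the mito-supplemented libraries and so had to differ. The counts and medians of this list and of the immediate-early genes, which also hold Ptgs2, are therefore a description only. Plk3, with 9, 7, 30 and 21 counts in controls, also needed the mito-supplemented libraries to pass. So did Lhcgr, with 0, 2, 16 and 4, and the immediate-early genes Socs3, with 0, 4, 81 and 1, and Arc, with 0, 0, 31 and 0. Lhcgr, Socs3 and Arc were picked out once the values were known, and other members may be alike. At least 1 nonamer was found in 19 of the 33 listed. Ptgs2, the inducible cyclooxygenase, and Fos, the AP-1 subunit, were the genes called, and their sites are shown for comparison with those of the family. They lie at chr1:150105790-150105818 and chr12:85477103-85477131 of GRCm38, both on the plus strand, with the nonamer in capitals.
Ptgs2: ctgaccatatTTATTTATTtatgtgaaga
Fos: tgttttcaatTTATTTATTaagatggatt
Ptgs2 was at 0.0410, 1.19, 0.515 and 0 CPM in controls and at 7.47, 2.42, 8.94 and 21.1 CPM in mito-supplemented samples, and its log2 fold change of 4.44 (SE 1.20) rests on very few control counts. Plk3, a stress-activated kinase gene, was at 0.369, 0.555, 1.72 and 4.14 CPM in controls and at 9.41, 4.64, 5.44 and 7.44 CPM in mito-supplemented samples, and its log2 fold change was 2.03 (SE 0.86). Fos had the highest mean level of the list, at 41.3 RPKM.

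**Figure D4:**
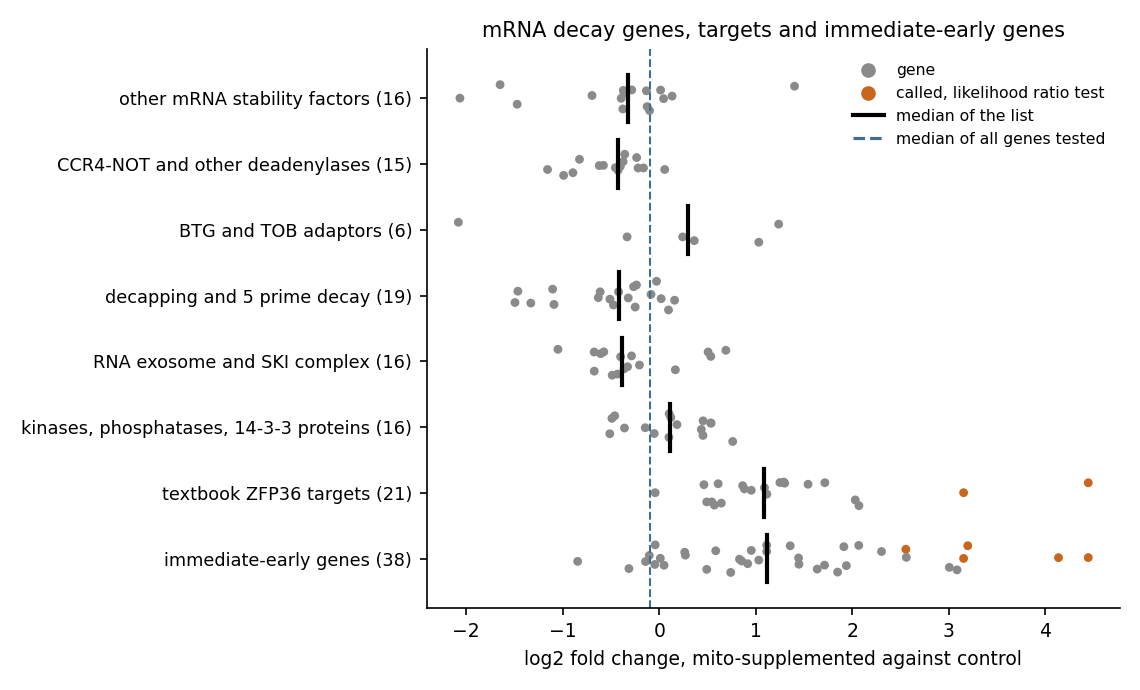
Log2 fold change of every gene tested in 8 lists, 1 point per gene, with the number tested in brackets. Black bars are list medians, the dashed line is the median of all genes tested, at -0.10, and genes called by the likelihood ratio test are in orange. Deadenylase, decapping and exosome genes have medians of -0.43, -0.42 and -0.38, and targets and immediate-early genes of 1.09 and 1.11.

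Immediate-early genes, the class to which Zfp36 belongs but without Zfp36 itself, were higher for 32 of 38 genes tested, with a median log2 fold change of 1.11, 13 higher and 0 lower at an unadjusted p under 0.05, and 9 whose groups did not overlap. The list shares 5 genes with the targets, 12.2% of its own and 15.2% of theirs. The likelihood ratio test called 5 of its genes, the transcription factor genes Fos, Fosb, Egr1 and Atf3 together with Ptgs2. Of all genes tested, 3% were higher without overlap and 0.411% were called as higher. Ptgs2 passed the filter through the mito-supplemented libraries, as stated above, and nothing is read from its call. With each of the 8 libraries left out in turn, that test called Atf3 in 8 fits, Fos in 7, Egr1 in 4, Fosb in 3 and Ptgs2 in 3. Leaving out control replicate 2 lost Fos, Egr1 and Fosb, and leaving out mito-supplemented replicate 2 or 4 lost Egr1, Fosb and Ptgs2. Fosb and Ptgs2 were lost without control replicate 1 or 3, and Egr1 and Ptgs2 without mito-supplemented replicate 3. Egr1 had the highest mean level, at 84.2 RPKM. Fos was at 10.3, 11.3, 43.4 and 13.4 CPM in controls and at 63.6, 129, 213 and 292 CPM in mito-supplemented samples, with its highest control value in replicate 3, as for Zfp36. Atf3 was at 1.27, 7.29, 13.5 and 2.76 CPM in controls and at 45.1, 133, 69.0 and 192 CPM in mito-supplemented samples, again with replicate 3 as the highest control. The surface epithelium, stroma and endothelium markers were on the whole higher in the same samples. Control replicate 4 had 476.5 CPM of surface epithelium, 2208 CPM of stroma and 225 CPM of endothelium markers. It had 13.4 CPM of Fos, 2.76 CPM of Atf3 and 15.8 CPM of Zfp36, within the range of the other controls. Fosb was at 6.605, 5.47, 10.1 and 20.9 CPM in controls and at 20.7, 53.2, 66.5 and 251.8 CPM in mito-supplemented samples. Its highest control value was that of control replicate 4, above mito-supplemented replicate 1. The part of those cells in the values of Fos, Atf3 and the others was not tested.

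The genes most like each member were found by Pearson correlation of log2 CPM over the 8 libraries among 8049 other genes with a mean of at least 10 CPM. For Zfp36 they were Olfml2b (r = 0.977), Notch1 (0.974), Fos (0.970), Klf6 (0.952) and Timp2 (0.948). Fos, Klf6 and Notch1 are in the target or immediate-early lists, and Olfml2b and Timp2 encode an extracellular matrix protein and a metalloproteinase inhibitor. With the group means removed, r with Zfp36 was 0.903 for Olfml2b, 0.935 for Notch1, 0.871 for Fos, 0.880 for Klf6 and 0.813 for Timp2. Spearman's rho with Zfp36 ran from 0.929 for Olfml2b to 0.976 for Fos and Timp2. Klf6, a zinc finger transcription factor gene, was at 14.5, 40.4, 68.4 and 34.9 CPM in controls and at 101, 67.7, 144.5 and 205 CPM in mito-supplemented samples.

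For Zfp36l1 the most alike genes were Rbbp9 (r = 0.985), Vim (0.984), Acta2 (0.980), Nedd4 (0.975) and Gnas (0.974). Vim encodes the intermediate filament of mesenchymal cells, and Acta2 is in the smooth muscle list. Vim was at 92.0, 124, 200.5 and 449 CPM in controls and at 238, 404, 411.5 and 698 CPM in mito-supplemented samples, with control replicate 4 again above 3 of the mito-supplemented libraries. With the group means removed, r with Zfp36l1 was between 0.960 for Nedd4 and 0.989 for Rbbp9. For Zfp36l2 they were Map2k1 (r = 0.874), Nampt (0.873), Kbtbd7 (0.865), Dnajb9 (0.861) and Rap2c (0.853), none of them from the lists above. Map2k1, a kinase gene of the ERK pathway, was at 32.9, 9.91, 20.4 and 8.09 CPM in controls and at 21.01, 12.1, 17.1 and 21.97 CPM in mito-supplemented samples. Without the 2 libraries farthest from the median of each member, r was 0.949 for Fos with Zfp36, 0.954 for Rbbp9 with Zfp36l1 and 0.738 for Map2k1 with Zfp36l2.

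Among the members themselves, r over the 8 libraries was 0.783 for Zfp36 with Zfp36l1, 0.340 for Zfp36 with Zfp36l2 and -0.118 for Zfp36l1 with Zfp36l2. With the group means removed these values were 0.632, 0.044 and -0.472. All points share the depth and the cell make-up of their library, and with many genes compared over 8 libraries high values of r are common, so they are given as a description.

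**Figure D5:**
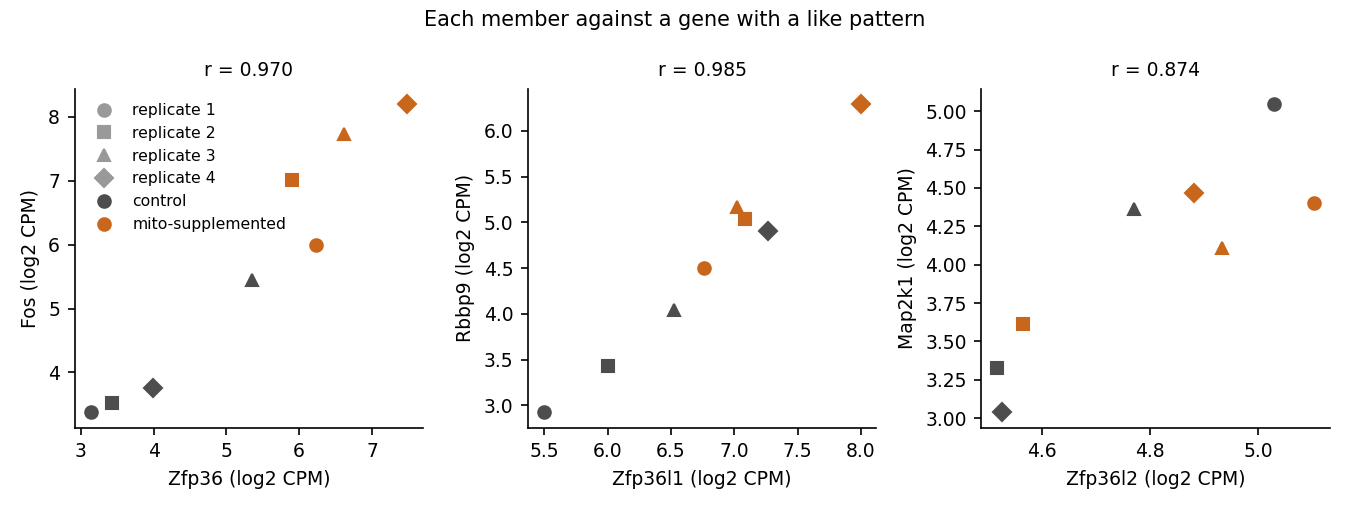
Log2 CPM of Zfp36 against Fos, Zfp36l1 against Rbbp9 and Zfp36l2 against Map2k1, 1 point per library, with controls in grey, mito-supplemented samples in orange and marker shape for the replicate number. Zfp36 and Fos are ordered almost alike, with r = 0.970, and with TMM normalization Zfp36l2 spans a much narrower range than the other members.

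Genes were also classed by the nonamer shown for the family, over the 12809 genes tested with an annotated 3′ UTR. The 11725 genes with 0 matches had a median log2 fold change of -0.10, the 852 genes with 1 match, which include Zfp36, Zfp36l1 and Zfp36l2, of -0.07 and the 232 genes with 2 or more of -0.14. In the same order 44.8, 46.7 and 45.3% of genes had a log2 fold change above 0, and the likelihood ratio test called 42, 6 and 3 genes, or 0.358, 0.704 and 1.29%. The 6 include Zfp36, which was selected by that test, so nothing is read from these shares. The classes differ in other ways, with median 3′ UTR lengths of 1149, 2295 and 2836 bases and GC contents of 44.6, 41.9 and 42.7%. Genes with 2 or more matches minus genes with 0 differed by -0.04 in median log2 fold change, and the sign turned with the shorter motif TATTTAT, at 0.03, and with the offset for GC content and length, at 0.02. With single libraries left out it was the other sign in 6 of 8 fits, the largest being 0.04 without control replicate 1. Per library, the same difference in median log2 CPM around each gene's mean ran from -0.12 to 0.01 in controls and from -0.05 to 0.06 in mito-supplemented samples.

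Promoter sequence, which the choice of members did not use, was searched in the 250 bases before the RefSeq start of each gene (GRCm38.p6), on both strands, for a CArG box, an EGR site (GCGNGGGCG), an AP-1 site (TGANTCA), a cyclic AMP response element (TGACGTCA) and a TATA box (TATAAA). Entries were found for Zfp36 and Zfp36l1. The window of Zfp36 holds a CArG box, the motif of serum response factor, ending 48 bases before the start, and an EGR site ending 96 bases before it, in capitals below. They lie at chr7:28379267-28379296 and chr7:28379315-28379344 and are printed on the minus strand, which is that of the gene. Both sites lie inside the longer annotated span of Zfp36 given above, within the exons used for its RPKM, so that they are upstream of the RefSeq start but not of every annotated Zfp36 transcript.
Zfp36 CArG box: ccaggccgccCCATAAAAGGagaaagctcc
Zfp36 EGR site: cgagctacgccGCGGGGGCGcgtcccggaa
The window of Zfp36l1 holds instead a match to the AP-1 pattern ending 122 bases and a TATA box ending 23 bases before the start. They lie at chr12:80113125-80113154 and chr12:80113025-80113054 on the minus strand and do not overlap. The AP-1 pattern searched, TGANTCA, accepts any base at its centre, and this match has a T there. The AP-1 shares below are for that loose pattern.
Zfp36l1 AP-1 site: tgaccgcatggcTGATTCAacctcagtgtc
Zfp36l1 TATA box: cccaccaaatctTATAAAttgggctttgcg
Of 32851 windows of this length, 1.47% hold a CArG box, 4.70% an EGR site, 6.75% an AP-1 site, 1.55% a cyclic AMP response element and 12.4% a TATA box. Of the 32 immediate-early genes with an entry, 3 hold a CArG box, 12 an EGR site, 2 an AP-1 site, 3 a cyclic AMP response element and 7 a TATA box, against 1.62, 5.33, 7.82, 1.77 and 14.3% of all genes with an entry. A match describes the letters in the window and shows no binding.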

How the data were processed

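Reads had been trimmed with Trim Galore 0.4.4, mapped to mm10 with STAR 2.5.3a and counted on exons with featureCounts by the authors, who deposited raw counts per gene symbol. Which annotation release was used, the strand setting and the handling of multi-mapping reads are not given in the sources used here. Counts were analysed with edgeR 4.0.16 in R 4.3.3 (TMM, default expression filter, quasi-likelihood test, Benjamini-Hochberg adjustment), and with DESeq2 1.42.0 as an alternative. Calls required an adjusted p under 0.05 together with a 2-fold difference in either direction. Log2 CPM used a prior count of 2, and RPKM the exons of GENCODE M21, which covered 24553 of the symbols, 2085 by an older name. Levels were compared within libraries by exact sign-flip permutation tests. Samples were labelled as biological replicates, but their label codes share a first part (280 and 301 in controls, C56 and C60 in mito-supplemented samples) whose meaning is not given. If it marks litters or mothers, each group holds 2 independent units and not 4, and p values measure only the spread between these samples.

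The members and lists were chosen with earlier results of these data known. The genes named were the family, each list's likelihood ratio calls, its 3 largest changes with separated groups and its most abundant gene, the 5 genes most like each member, and each marker list's likelihood ratio calls and most abundant gene. A gene outside this rule is stated as such, apart from members given only as examples of genes not tested. Exons of Tia1, Hnrnpab, Cnot1, Cnot3, Plk3, Notch1, Col3a1 and Gnas overlap other annotated genes, so their counts are uncertain.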

Additional observations from a re-analysis of the deposited data

Results flagged for a closer look

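In 118 groups of 4 libraries, 13 values stood far from the other 3 of their group, where about 5.9 are expected by chance at 1 in 20. Among family values, the Zfp36 share of summed family RPKM was 23.4% in control replicate 3 against 7.28 to 9.96% in the other controls, and Zfp36l1 minus Zfp36 was 1.40 log2 RPKM in mito-supplemented replicate 2 where the 3 others of its group had 0.62 to 0.75.

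Control replicate 1 stood apart with 3474 CPM of summed oocyte markers, and with log2 CPM values of 4.35 for Kbtbd7 and 6.57 for Rap2c, genes chosen for their likeness to Zfp36l2. Control replicate 4 stood apart with 2208 CPM of stroma, 225 CPM of endothelium and 226 CPM of smooth muscle markers, and with a log2 CPM of 8.38 for Wt1. Mito-supplemented replicate 1 stood apart with 1035 CPM of leukocyte and 4873 CPM of red cell markers and with a log2 CPM of 9.32 for Lyz2, and mito-supplemented replicate 4 with 324 CPM of smooth muscle markers. What set these libraries apart was not tested.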

How the results depend on the processing

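The log2 fold changes of Zfp36, Zfp36l1 and Zfp36l2 kept their sign in all 18 alternatives. That of Zfp36l2 ran only from 0.017 to 0.387, with a standard error of 0.328 in the main fit, so its direction is not settled. The quasi-likelihood test called 0 genes under every normalization, filter, offset and leave-one-out fit run, against 58 with the likelihood ratio test and 141 with DESeq2. The likelihood ratio test called 13, 22 or 26 genes when mito-supplemented replicate 2, control replicate 2 or mito-supplemented replicate 4 was dropped, and 387 or 331 when mito-supplemented replicate 1 or control replicate 4 was. For this the cause was not tested. With counts summed over samples that share a label code, 2 sums a group, the quasi-likelihood test called 0 genes and the log2 fold changes were 2.59 for Zfp36, 1.32 for Zfp36l1 and 0.16 for Zfp36l2. With a replicate block the quasi-likelihood test called 0 genes and the likelihood ratio test 74. Samples of the same number did not deviate together (correlations of -0.244, -0.191, -0.334 and 0.222). These values show no pairing by number but cannot exclude one, since the libraries also differ in cell markers.

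Zfp36l2 minus Zfp36l1 was -1.85 log2 RPKM in controls alone and -2.59 in mito-supplemented libraries alone, and Zfp36l1 minus Zfp36 was 2.56 and 0.87, all short of the threshold because 4 libraries cannot reach it. Zfp36l2 minus Zfp36 turned to 0.71 in controls alone. With the RefSeq length of Zfp36, chosen after seeing the data, Zfp36l1 minus Zfp36 was 0.74 and no longer past the threshold, and Zfp36l2 minus Zfp36 was -1.48. The difference between nonamer classes, -0.04, was 0.029 with TATTTAT and ran from -0.01 to 0.042 with single libraries left out, also chosen after seeing the data. Low counts limit control replicate 4 most.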
